A study of Mus musculus with 6 samples.

Results

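The MYC, MAX and MXD network is a family of basic helix-loop-helix leucine zipper transcription factors, and 10 of its genes are described here: Myc, Mycn, Mycl, Max, Mxd1, Mxd3, Mxd4, Mnt, Mga and Mlx. They were taken by gene symbol, and 18 probes of the array carry one of these symbols, of 19053 named genes on the array in all. Signals came from Illumina 1-colour bead arrays, on which biotin-labelled RNA binds to probes attached to beads. The 3 i2PS cultures are pluripotent cells that arose when hepatocytes in the liver of BALB/c mice were reprogrammed inside the animal. The 3 E14TG2A cultures are an embryonic stem cell line of the Sv129 strain, derived from the inner cell mass of the blastocyst and bought from ATCC. Both lines started on feeder layers of mouse embryonic fibroblasts in DMEM with LIF and were then passaged 3 times on gelatin without feeders. Each line is a single source, and strain, tissue of origin and reprogramming differ between them together and cannot be told apart. The study took E14TG2A as the reference for the profile of the in vivo reprogrammed line.

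MAX is the shared partner of the network. It pairs with MYC, MYCN or MYCL to activate genes and with MXD proteins, MNT or MGA to repress them, and these pairs bind the same DNA element, the E-box. MXD proteins and MNT bring in the SIN3 and histone deacetylase corepressor. MGA, a large protein with a T-box as well, works in a variant Polycomb complex that keeps germ-cell genes silent in embryonic stem cells. MLX forms a parallel branch, in which it pairs with some of the MXD proteins, MNT or the glucose-responsive factors MLXIP and MLXIPL. In mouse embryonic stem cells MYC and MYCN support self-renewal and growth, and MYC belongs to the classical set of reprogramming factors.

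The E-box CACGTG, the preferred site of these dimers, was searched in the promoter window of each gene, 250 bases before to 50 after the start, in RefSeq sequences of GRCm38.p6. The motif reads the same on both strands, so that 1 search covers both. Of the 9 members with a promoter entry, 4 held it, as did 8.09% of all 27025 genes with an entry and 7.15% of the 32851 windows. The sites of these 4 members are shown because they are the letters the network's own proteins recognise, with the E-box in capitals and each sequence on the strand of its gene.
Max, chr12:76962236-76962261, minus strand: tgagcccggtCACGTGttagggggcc
Mlx, chr11:101087240-101087265, plus strand: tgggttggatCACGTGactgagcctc
Mnt, chr11:74830791-74830816, plus strand: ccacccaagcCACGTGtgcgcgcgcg
Mxd4, chr5:34187914-34187939, minus strand: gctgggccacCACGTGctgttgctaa
The motif began 3 bases before the start of the promoter entry in Max, 40 in Mlx, 123 in Mnt and 219 in Mxd4. That start can differ from the outer end of the gene span given below. In Max and Mlx the site lies inside that span. Mycn, Mycl, Mxd1, Mxd3 and Mga had no match in this window, which says nothing of sites elsewhere. These matches are a description of sequence, and binding was not measured.

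A probe counted as detected where its deposited detection p, its rank among the negative controls of the array, was under 0.01. A gene was tested where a probe was detected on all 3 arrays of at least 1 line. The i2PS arrays had mean signals between 340 and 357, and the E14TG2A arrays had 228 (replicate 1), 359 (replicate 2) and 403 (replicate 3), so that replicate 1 of E14TG2A was the dimmest array, and it had the fewest detected probes. All 14 pluripotency markers were detected on every array, and in the test described below 3 of them were higher in i2PS and 1 lower. The share that passed was 28.6%, against 43.7% of all tested genes. Of 14 hepatocyte markers, 11, Alb and Afp among them, were detected on no array, and the 1 tested did not pass. Of 14 fibroblast markers, 4 were detected on every array and 7, Col1a2, Col3a1 and Postn among them, on none. The summed normalized signal of all 14 fibroblast markers, tested or not, was 874 to 944 in i2PS and 1228 to 1422 in E14TG2A. Among the 4 tested, Thy1 was past the threshold as higher in i2PS and Fn1 and Loxl1 as lower. Their part in the results below was not tested. In bulk RNA, fewer cells of a type and less RNA per cell cannot be told apart.

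Of the 10 members, 5 passed the filter and were tested (Mycl, Max, Mxd3, Mxd4 and Mga), and 5 did not (Myc, Mycn, Mxd1, Mnt and Mlx). In i2PS against E14TG2A, 1 member was higher, Mxd3, and 1 was lower, Max. Max was detected on no i2PS array and entered the test only through E14TG2A, so that the filter favoured its direction and its count supports nothing. In the same limma fit 23.3% of 8651 tested genes were higher in i2PS, 20.4% were lower and 43.7% passed the threshold in either direction, a Benjamini-Hochberg adjusted p of 0.05. Max counts in the share of members that passed, so nothing is read from that share. With detection required on all 6 arrays, which leaves Max untested, 4 members were tested and Mxd3 alone passed. In that setting 42.7% of all tested genes passed. The lines did not overlap over the 6 arrays for Max and Mxd3, 2 of the 5 tested members, against 55.8% of all tested genes. Max counts here as well, with i2PS values near background. Mycl, Mxd3, Mxd4 and Mga had a 95% confidence interval wholly within 2-fold on the normalized scale, as did 80.8% of all tested genes. The interval of Max lay there too, but it sets E14TG2A against background and does not limit the size. The median difference over the 5 members was -0.36 on the log2 scale (i2PS minus E14TG2A, as throughout), against 0.03 over all tested genes. Max is among these 5, and its i2PS level is only an upper bound.

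**Figure D1:**
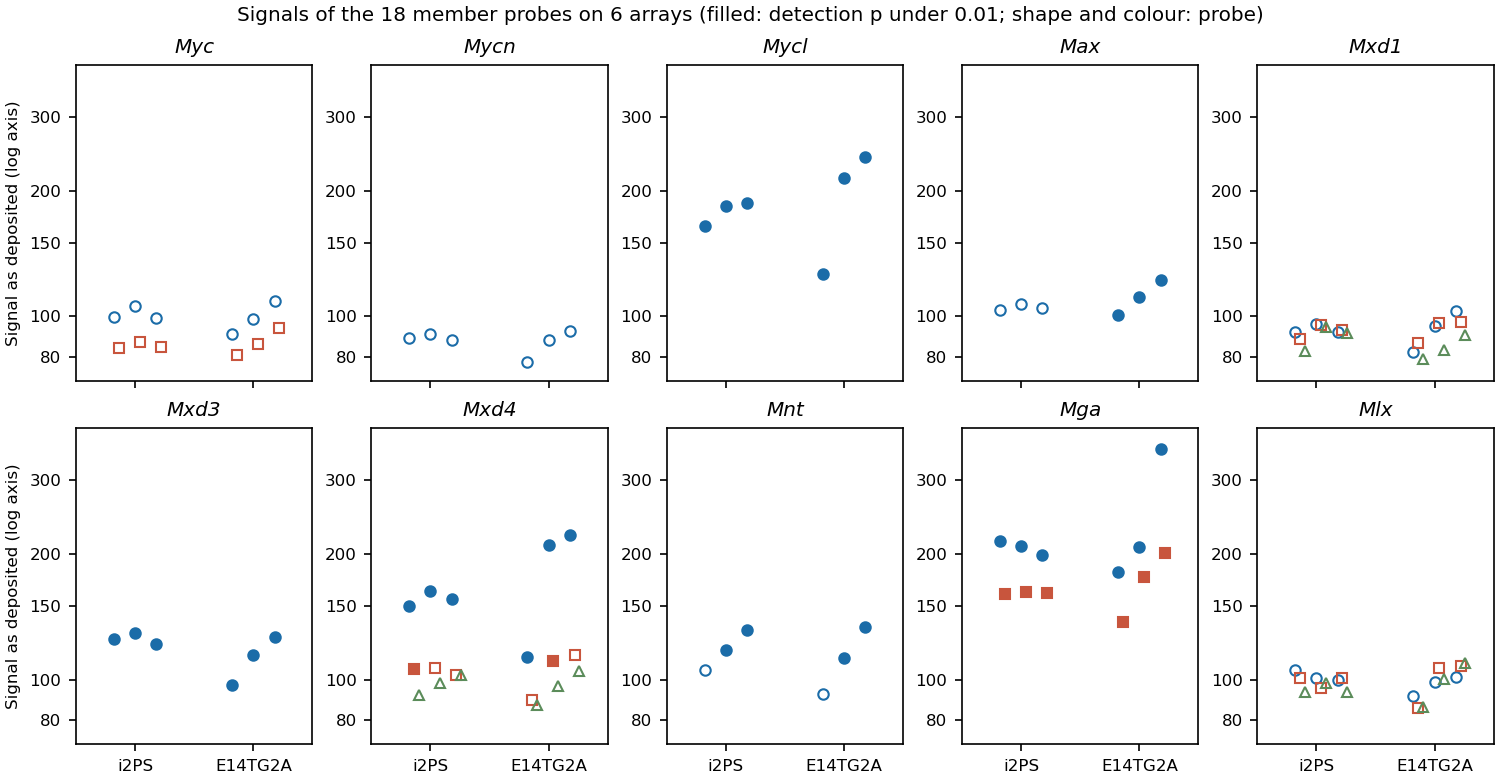
Deposited signal (log axis, arbitrary units) of the 18 probes of the 10 members on 3 i2PS arrays (left) and 3 E14TG2A arrays (right, replicates 1 to 3 from left to right); shape and colour mark the probe and filled symbols a detection p under 0.01. Myc, Mycn, Mxd1 and Mlx have open symbols only, while Mycl, Mxd3 and both Mga probes have filled symbols on every array. Max is filled on the E14TG2A arrays and open on the i2PS arrays.

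Myc, the founding oncogene of the family, lies on chromosome 15 (chr15:61985341-61990361, GRCm38.p6). The first of its 2 probes gave signals of 99.6, 105.6 and 99.3 in i2PS and 90.9, 98.5 and 108.7 in E14TG2A. The other probe gave 83.9, 86.9 and 84.4 in i2PS and 80.8, 86.1 and 94.0 in E14TG2A. Neither was detected on any array: the detection p of the first probe ran between 0.0342 and 0.0951 in i2PS and between 0.0556 and 0.144 in E14TG2A. A Myc level was thus not measurable with these probes, which is not evidence that the transcript was absent, and no fold is given.

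Mycn, the family member best known from neural tumours and embryos (chr12:12936093-12941836), has 1 probe on the array. It read 88.9, 90.8 and 87.8 in i2PS and 77.6, 88.0 and 92.5 in E14TG2A, below detection on all 6 arrays. Its lowest signal of all fell on the dim replicate 1 of E14TG2A.

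Mycl, the least studied of the 3 MYC proteins (chr4:122995588-123002490), was the MYC family gene with a measurable level. Its signal was 164.9, 184.2 and 187.1 in i2PS and 126.4, 214.4 and 240.5 in E14TG2A, detected on all 6 arrays. After normalization the log2 levels were 6.48, 6.64 and 6.76 in i2PS and 6.64, 7.01 and 6.94 in E14TG2A. The ranges overlapped, since replicate 1 of E14TG2A lay inside the i2PS values. The difference of -0.24 ± 0.13 (log2, SE, n = 3 per line, 95% interval -0.53 to 0.06) did not pass the limma test (adjusted p = 0.17). Without replicate 1 of E14TG2A it was -0.35, with a limma adjusted p of 0.0320.

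Max, the obligate partner of the MYC proteins (chr12:76937269-76962323), was close to background. Its single probe gave 103.5, 107.1 and 104.6 in i2PS and 100.9, 111.6 and 122.3 in E14TG2A. It was detected on no i2PS array, with detection p between 0.0150 and 0.0267, and on all 3 E14TG2A arrays, with detection p up to 0.0043. Normalized levels were 4.85, 4.81 and 4.82 (log2) in i2PS and 5.56, 5.04 and 5.09 in E14TG2A, so that every i2PS array lay below every E14TG2A array. The array with the lowest raw Max signal, the dim replicate 1 of E14TG2A, had the highest level after normalization.

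The Max probe was not well above background in i2PS, so its difference under the reported setting is given as a bound. By the means of that setting Max was at least 1.20-fold lower in i2PS, with no allowance for their spread. Some other settings gave smaller differences, such as -0.13 (log2) in the authors' table, so the bound does not extend to them. It also leans on replicate 1 of E14TG2A, at 5.56 (log2) against 5.04 and 5.09 in replicates 2 and 3. No bound was worked out without that array. The measured means were 4.82 in i2PS and 5.23 in E14TG2A (log2, SD 0.023 and 0.28, n = 3 arrays each). Their fitted difference of -0.40 was just past the threshold (limma adjusted p = 0.0481), but it sets E14TG2A against background and does not measure the size. Without replicate 1 of E14TG2A the difference was -0.26 and the limma adjusted p 0.0524. The call was lost as well when any of the 3 i2PS arrays or replicate 3 of E14TG2A was left out, and in the fit over single probes (adjusted p = 0.0544). It was also lost with no background correction (-0.12). In all, it was kept under 5 of 17 other settings, all of which kept the sign.

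Mxd3, a MYC antagonist that in mouse is expressed in dividing precursor cells (chr13:55325170-55329900), was the member higher in i2PS. Its signal was 125.0, 128.9 and 121.5 in i2PS and 96.9, 114.7 and 126.1 in E14TG2A, detected on every array. Before normalization the lines thus overlapped, through replicate 3 of E14TG2A. Normalized levels were 5.64, 5.59 and 5.48 (log2) in i2PS and 5.23, 5.16 and 5.19 in E14TG2A, and then they did not overlap. The difference of 0.38 ± 0.10 (log2, SE, n = 3 per line, 95% interval 0.15 to 0.61), 1.30-fold higher in i2PS, passed the limma test (adjusted p = 0.0157). That fold is on the normalized scale, where an offset of 16 added to every signal makes the fold of a dim probe smaller.

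The Mxd3 difference was positive under each of the 18 other settings tried and past the threshold under 10. It fell short of the threshold with no background correction, at 0.13, and when replicate 1 or 2 of i2PS or replicate 2 of E14TG2A was left out, with differences between 0.34 and 0.36 there (highest limma adjusted p of these 0.0602). Size and call both changed with the background correction. The call was lost as well with equal medians (0.43, limma adjusted p = 0.566) and with a variance trend (0.38, limma adjusted p = 0.0646). The cause was not tested.

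**Figure D2:**
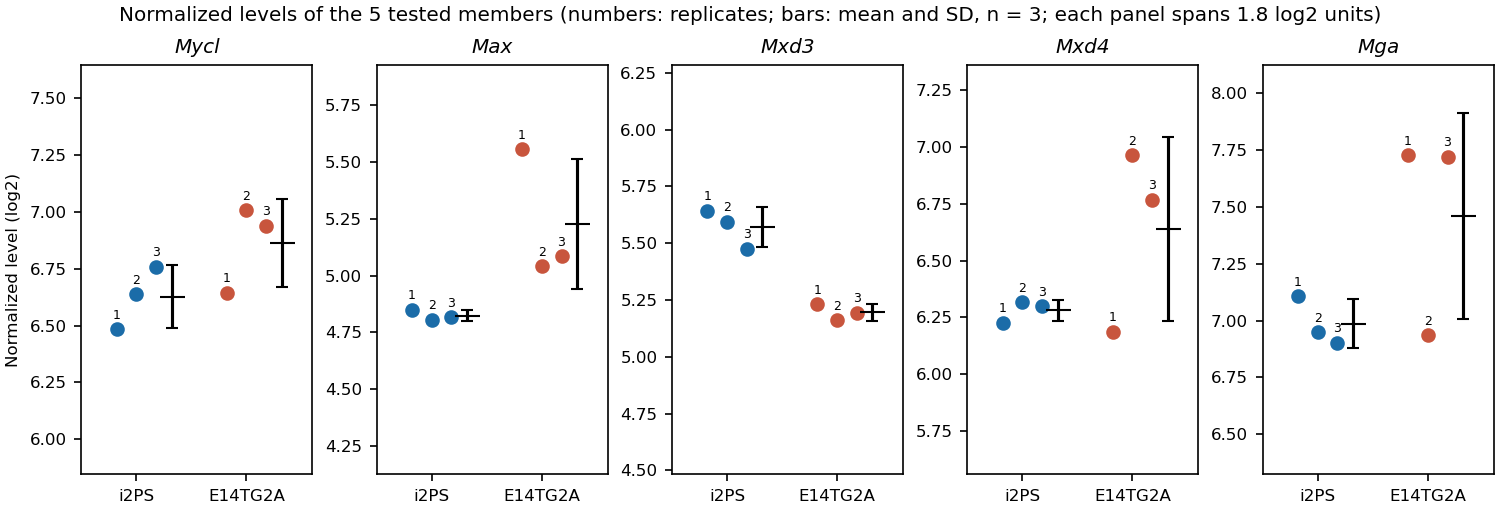
Normalized log2 level of the 5 tested members on each array (points numbered by replicate, i2PS left and E14TG2A right), with the mean and SD of each line (n = 3); panels span the same 1.8 log2 units around their own centre. Lines are separate for Max and Mxd3, while E14TG2A replicate 1 lies apart from replicates 2 and 3 for Max, Mxd4 and Mycl.

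Mxd4, another MXD antagonist (chr5:34176580-34187710), has 3 probes, of which 1 was bright enough to test. That probe read 149.9, 162.6 and 156.3 in i2PS and 113.0, 210.2 and 221.9 in E14TG2A. Normalized levels were 6.23, 6.32 and 6.30 (log2) in i2PS and 6.19, 6.96 and 6.77 in E14TG2A. E14TG2A replicate 1 lay just below the i2PS arrays, and the other E14TG2A arrays lay above all of them. The difference was -0.36 ± 0.18 (log2, SE, n = 3 per line, 95% interval -0.77 to 0.05) and missed the threshold (limma adjusted p = 0.139). Without replicate 1 of E14TG2A it was -0.59 (limma adjusted p = 0.0022), and with arrays weighted by their quality -0.56 (limma adjusted p = 0.0023). The other probes stayed between 87.1 and 114.2, and 1 of them was detected on 1 array of each line.

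Mxd1, the first MXD protein described and a marker of cells leaving the cycle (chr6:86647044-86669234), was not detected by any of its 3 probes on any array. The probe that was brightest on average read 91.6, 95.8 and 92.0 in i2PS and 82.4, 94.6 and 103.3 in E14TG2A. Signals of all its probes lay between 79.0 and 103.3.

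Mnt, the MAX partner that is present in resting and growing cells alike (chr11:74830806-74845725), was near the limit of detection. Its probe read 105.3, 117.8 and 131.2 in i2PS and 92.2, 112.7 and 133.4 in E14TG2A. In both lines, replicates 2 and 3 were detected and replicate 1 was not, so that Mnt narrowly missed the filter. The lines covered nearly the same range, and with no filter on dim probes the difference was 0.24 ± 0.24 (log2, SE, n = 3 arrays each, limma adjusted p = 0.64).

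Mga, the Polycomb-linked MAX partner (chr2:119872503-119970129), had both of its probes detected on all 6 arrays. The probe used for the test read 214.8, 209.4 and 199.0 in i2PS and 181.3, 208.2 and 357.4 in E14TG2A. Normalized, it gave 7.11, 6.95 and 6.90 (log2) in i2PS and 7.73, 6.94 and 7.72 in E14TG2A. Replicate 2 of E14TG2A lay within the i2PS values and the other two lay above them. The difference of -0.47 ± 0.20 (log2, SE, n = 3 per line, 95% interval -0.93 to -0.02) did not pass after adjustment (limma adjusted p = 0.0854). Without replicate 2 of E14TG2A it was -0.73 (limma adjusted p = 0.0030).

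The second Mga probe gave 6.40, 6.31 and 6.40 (log2) in i2PS and 6.95, 6.52 and 6.53 in E14TG2A, with no overlap. In the fit over single probes its difference was -0.30 ± 0.14 (log2, SE, n = 3 arrays each, limma adjusted p = 0.112). The probes shared a sign but placed different E14TG2A replicates apart: replicate 2 was low for the first probe, and replicate 1 was high for the second. The probes bind 1 gene and are not replicates of each other.

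Mlx, the centre of the glucose-responsive branch (chr11:101086707-101092207), was detected on no array with its 3 probes. The probe that was brightest on average read 105.3, 100.9 and 99.95 in i2PS and 91.5, 98.5 and 101.5 in E14TG2A. As for Myc, Mycn and Mxd1, no difference is given, since signals at background cannot show one. The 12 member probes that missed the filter lay between 77.6 and 133.4 on all arrays.

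**Figure D3:**
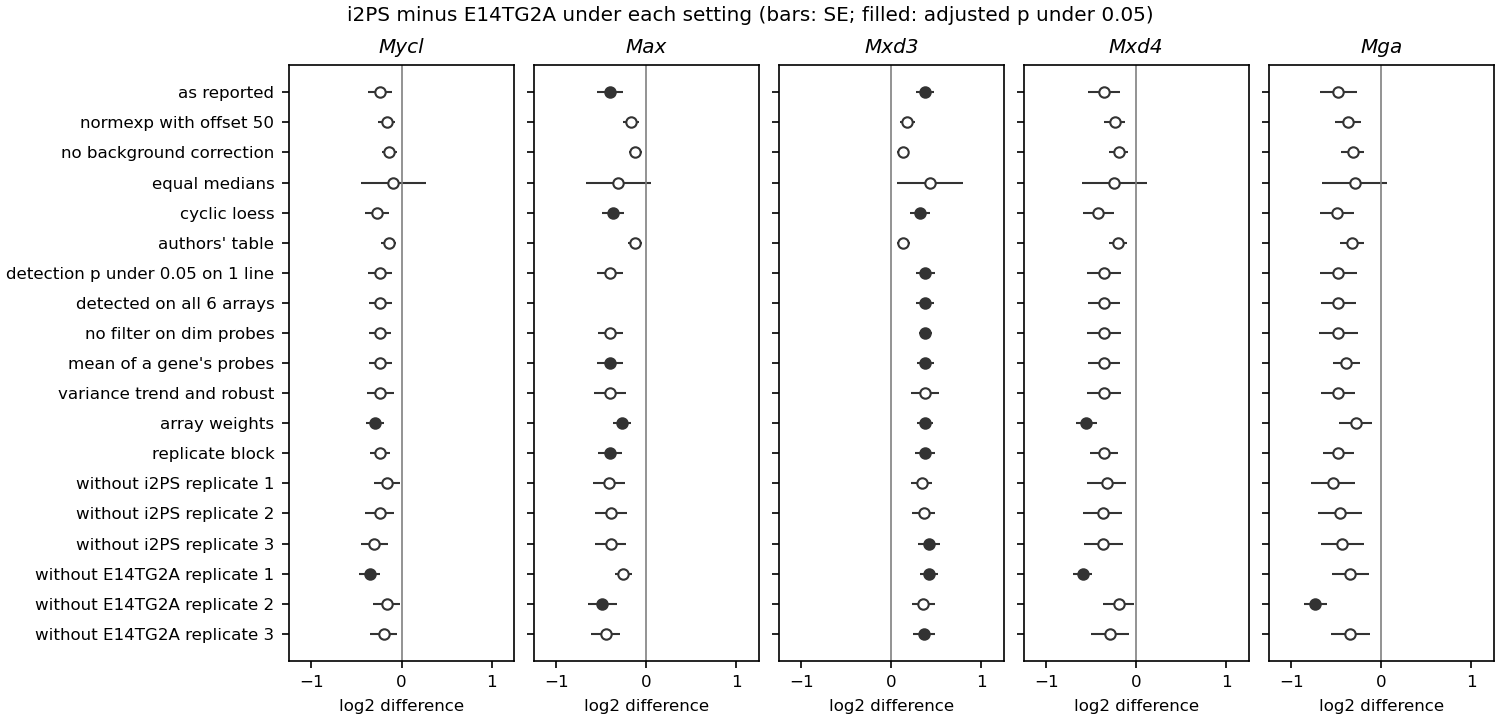
Log2 difference, i2PS minus E14TG2A, with its SE (bars) for the 5 tested members under the reported setting (top) and each alternative; filled points have an adjusted p under 0.05, and a gap marks a setting in which Max was not tested. Signs are the same in every row, Mxd3 is filled under 10 of 18 alternatives and Max under 5 of 17.

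For each member past the threshold, the genes with the nearest profile over the 6 arrays were taken by the root-mean-square distance of log2 values after each gene's mean was removed. Nearest to Max were Ubap1, an endosomal sorting factor, at 0.037, Phkg2, a phosphorylase kinase subunit, at 0.049, and Dbnl, an actin-binding adaptor, at 0.050. Nearest to Mxd3 were Nit1, an amidase, at 0.027, Spout1 at 0.030 and Pus10, a pseudouridine synthase, at 0.031. With 6 arrays of 2 lines, such distances describe these arrays and nothing more.

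The 10 nearest tested genes on the chromosome of each tested member, 5 on each side, were also counted. Around Mycl 1 was higher and 4 were lower in i2PS, with a median of -0.22. Around Max 3 were higher and 1 was lower, and their median was 0.16, while Max itself was lower. Around Mxd3 3 were higher and 2 lower (median 0.0021), and around Mxd4 4 were higher and 1 lower (median -0.03). Around Mga 3 were higher and 1 lower, with a median of 0.22, while Mga itself lay at -0.47 and did not pass. The counts compare with 23.3% higher and 20.4% lower among all tested genes.

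Outside the member list, Mxi1, a further MXD protein, was detected on no array. Mlxip, a glucose-responsive partner of MLX, gave log2 levels of 5.53, 5.99 and 6.09 in i2PS and 5.97, 5.44 and 5.95 in E14TG2A. Mlxipl, its liver-enriched relative, gave 5.35, 5.53 and 6.01 in i2PS and 5.81, 5.89 and 5.91 in E14TG2A. Neither passed the limma test, with a difference of 0.08 ± 0.19 (log2, SE, n = 3 arrays each, adjusted p = 0.75) for Mlxip and -0.24 ± 0.16 (adjusted p = 0.26) for Mlxipl. Without replicate 3 of i2PS, Mlxipl was at -0.43 (limma adjusted p = 0.0377).

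Genes that the network acts on, and the proteins it acts through, were counted from lists made from textbook knowledge. Equal medians in place of quantile normalization ended nearly all calls here, as it did over all genes, where 634 passed. It moved the median of all genes to 0.19, against 0.03. The alternatives were followed for 50 list genes past the threshold, taken from these lists and from the cell type markers. Those markers were Thy1, Fn1, Loxl1, Esrrb, Tdgf1 and Gdf3. Of the 50, 4 also passed with equal medians (Stag3, Cdkn1a, Pold2 and Ing2), and all 50 kept their sign under every alternative. They were picked for passing in these data, so the kept signs are no separate support.

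Some MYC-activated genes of ribosome synthesis were higher in i2PS and some lower, and 39.3% of those tested passed, against 43.7% of all tested genes. The test covered 28 of the 34. In i2PS 8 of them were higher and 3 lower, and 17 missed the threshold. Their median was 0.21, against 0.03 over all genes. Bop1, a factor in large-subunit assembly, had log2 levels of 7.91, 7.82 and 8.04 in i2PS and 7.05, 7.003 and 7.39 in E14TG2A, a difference of 0.78 ± 0.13 (SE, n = 3 arrays each, limma adjusted p = 0.00148). Ncl, the nucleolar protein nucleolin, had 10.91, 10.88 and 10.88 in i2PS and 10.21, 10.17 and 10.07 in E14TG2A, a difference of 0.74 ± 0.10 (limma adjusted p = 0.000438). Nop58 and Nop56, the paired core proteins of box C/D small nucleolar particles, were both lower in i2PS.

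Nop58 had log2 levels of 13.14, 12.82 and 12.91 in i2PS and 13.49, 13.49 and 13.53 in E14TG2A, a difference of -0.55 ± 0.11 (SE, n = 3 arrays each, limma adjusted p = 0.00434). Nop56 differed by -0.42 ± 0.14 (limma adjusted p = 0.0322). The Nop56 call was lost without replicate 2 or 3 of i2PS or replicate 1 or 2 of E14TG2A, with limma adjusted p up to 0.129.

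Among other MYC-activated genes, of metabolism, translation and the cell cycle, 44.1% of those tested passed, near the 43.7% of all tested genes. The test covered 34 of the 40. In i2PS 9 of them were higher and 6 lower, and 19 missed the threshold. Their median was 0.17. Without replicate 1 of E14TG2A, 14 were higher. Pold2, a subunit of DNA polymerase delta, had log2 levels of 10.08, 10.21 and 10.35 in i2PS and 9.33, 9.08 and 8.92 in E14TG2A, a difference of 1.10 ± 0.13 (SE, n = 3 arrays each, limma adjusted p = 0.000255), or 2.15-fold. Shmt1, a one-carbon enzyme, was higher by 0.85 ± 0.14 (limma adjusted p = 0.00147). Ccnd2, the cell-cycle activator cyclin D2, had 6.21, 6.38 and 6.46 in i2PS and 6.85, 7.31 and 7.22 in E14TG2A, a difference of -0.78 ± 0.14 (limma adjusted p = 0.00227). Apex1, a DNA repair endonuclease, was at -0.53 ± 0.13 (limma adjusted p = 0.0096).

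Among genes that MYC represses, the cell-cycle inhibitor p21, encoded by Cdkn1a, had the largest difference. Its log2 levels were 8.04, 7.65 and 7.56 in i2PS and 9.84, 9.93 and 9.73 in E14TG2A, far apart in every array. The difference was -2.08 ± 0.14 (SE, n = 3 arrays each, limma adjusted p = 1.07e-05), 4.24-fold lower in i2PS. Gadd45b, a growth-arrest and stress gene, had 7.03, 7.37 and 7.20 in i2PS and 8.21, 8.16 and 7.96 in E14TG2A, a difference of -0.91 ± 0.13 (limma adjusted p = 0.000515). These were the 2 lower genes of the 6 tested of 10. None was higher, and the median was -0.15. The share that passed was 33.3%, against 43.7% of all tested genes. With equal medians that median was 0.02.

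Of the 5 genes listed as MLX targets, 3 were tested. Arrdc4, an arrestin-domain gene that glucose induces, had deposited signals of 2710, 2523 and 2524 in i2PS and 1978, 5411 and 5681 in E14TG2A. On the normalized log2 scale it had 11.35, 11.16 and 11.20 in i2PS and 11.82, 12.25 and 12.13 in E14TG2A, a difference of -0.83 ± 0.13 (SE, n = 3 arrays each, limma adjusted p = 0.00108). Txnip, its close relative and an inhibitor of glucose uptake, lay the other way at 0.28 ± 0.11 and missed the threshold (limma adjusted p = 0.0731). It passed under 6 of 18 alternatives.

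Tkfc, a sugar kinase, differed by 0.18 ± 0.27 (log2, SE, n = 3 arrays each, limma adjusted p = 0.61), and by 0.56 without replicate 1 of E14TG2A (limma adjusted p = 0.0055). Pklr and G6pc, enzymes of liver sugar metabolism, did not pass the filter. The difference between Arrdc4 and Txnip was not tested.

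Germ-cell genes that MGA, MAX and their complex are known to silence in mouse embryonic stem cells were mostly not measurable. Of 20 genes, 19 were matched to a probe, and 6 of them passed the filter, Dazl, Sycp1, Sycp3 and Stra8 not among them. Of these 6, 1 was higher and 2 were lower, and 1 of the lower ones, Meioc, passed the filter only through E14TG2A. The 50% that passed the threshold compare with 43.7% of all tested genes. Stag3, a cohesin subunit of meiosis, had log2 levels of 9.59, 9.91 and 9.70 in i2PS and 7.36, 7.71 and 7.86 in E14TG2A. The difference of 2.09 ± 0.15 (SE, n = 3 arrays each, limma adjusted p = 1.37e-05) was 4.26-fold. Taf7l, a germ-cell form of a general transcription factor subunit, had 6.73, 6.37 and 6.02 in i2PS and 6.91, 7.35 and 7.35 in E14TG2A, a difference of -0.83 ± 0.19 (limma adjusted p = 0.00744).

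Meioc, needed for meiotic prophase, had log2 levels of 5.10, 4.40 and 4.33 in i2PS and 5.38, 5.004 and 5.14 in E14TG2A, so that the lines overlapped. It was detected on 1 i2PS array, and its difference was -0.56 ± 0.20 (SE, n = 3 arrays each, limma adjusted p = 0.0483). Since it passed the filter only through the line in which it was higher, the filter favoured this direction. The call was lost when replicate 2 or 3 of i2PS or any E14TG2A array was left out, with limma adjusted p up to 0.17. Stag3 and Taf7l, which moved in opposite directions, both carry the E-box in their window, here in capitals, as does Arrdc4.
Stag3, chr5:138280329-138280354, plus strand: cgctggagccCACGTGacaggactgc
Taf7l, chrX:134476524-134476549, minus strand: cctcttatacCACGTGacagaactcg
Arrdc4, chr7:68749416-68749441, minus strand: aggtcctgtgCACGTGcactatggtg
The E-box was present in 11 of 19 germ-cell windows and in 19 of 65 windows of the MYC-activated genes, or 57.9% and 29.2%, against 8.09% of all genes with a window. These lists were gathered partly because such proteins bind them, so the shares describe the lists. Among the MYC-activated genes with the motif, 5 of 16 tested were higher and 2 lower. Among those without it 9 of 38 were higher and 5 lower. Over all tested genes 23.3% were higher and 20.4% lower. No test was made between genes with and without the motif.

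**Figure D4:**
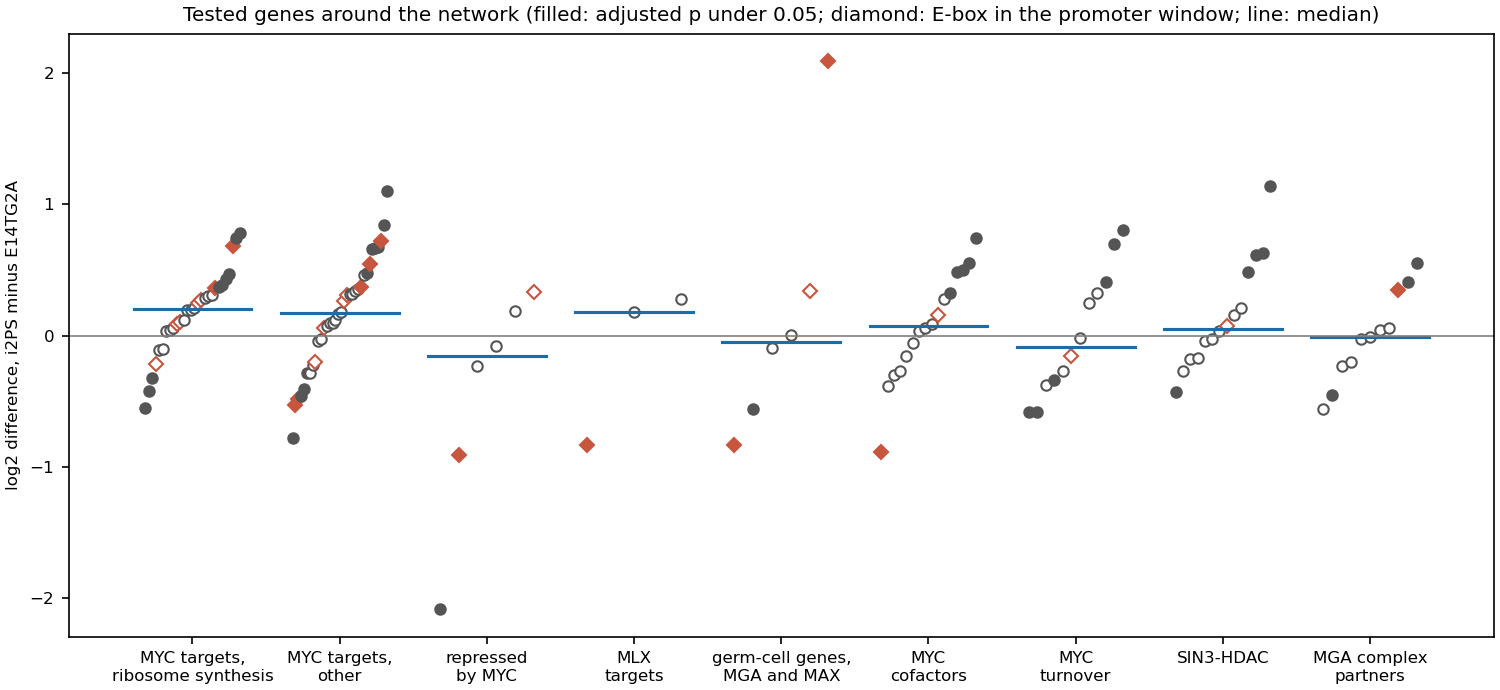
Log2 difference, i2PS minus E14TG2A, of each tested gene in 9 lists around the network, ordered by size within a list, with the list's median as a line; filled symbols passed the threshold, diamonds have the E-box in their window and circles have none or no promoter entry. Most genes lie within 1 log2 unit of 0, and Stag3 at 2.09 and Cdkn1a at -2.08 stand farthest out.

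The coactivators and partners that MYC recruits had 16 of 18 genes tested, with 5 higher, 1 lower and a median of 0.07. The share that passed was 37.5%, against 43.7% of all tested genes. Kat2a, a histone acetyltransferase, had log2 levels of 8.87, 9.39 and 9.07 in i2PS and 8.29, 8.44 and 8.37 in E14TG2A, a difference of 0.74 ± 0.14 (SE, n = 3 arrays each, limma adjusted p = 0.00274). Wdr5, a chromatin scaffold that binds MYC, was higher by 0.56 ± 0.14 (limma adjusted p = 0.0105). Kat5, another acetyltransferase of MYC complexes, was the lower gene, with 7.75, 7.52 and 7.55 in i2PS and 8.45, 8.53 and 8.48 in E14TG2A, a difference of -0.88 ± 0.11 (limma adjusted p = 0.000258).

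Of the enzymes that act on the stability of MYC protein, 12 of 18 were tested, with 3 higher, 3 lower and a median of -0.08. The 50% that passed compare with 43.7% of all tested genes. Without replicate 1 of E14TG2A 4 were higher and 6 lower, and 3 were higher and 5 lower in the authors' table. Usp28, a deubiquitinase that stabilises MYC, was higher at 0.81 ± 0.12 (log2, SE, n = 3 arrays each, limma adjusted p = 0.000915). Axin1, a scaffold for MYC degradation, was also higher, at 0.70 ± 0.11 (limma adjusted p = 0.000854). Gsk3b, the kinase that marks MYC for degradation, was lower at -0.58 ± 0.14 (limma adjusted p = 0.00806), and Trpc4ap, a ubiquitin-ligase receptor for MYC, at -0.58 ± 0.12 (limma adjusted p = 0.00442). Protein was not measured.

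The SIN3 and histone deacetylase corepressor of the MXD proteins had 14 of 20 genes tested, with 4 higher, 1 lower and a median of 0.05. The share that passed was 35.7%, against 43.7% of all tested genes. When E14TG2A replicate 1 was left out, 4 were higher and 4 lower and the median was -0.06. Ing2, a reader of methylated histone H3, had log2 levels of 7.90, 7.91 and 7.80 in i2PS and 6.40, 6.96 and 6.82 in E14TG2A, a difference of 1.14 ± 0.15 (SE, n = 3 arrays each, limma adjusted p = 0.000364), or 2.21-fold. Suds3, a core subunit, was higher by 0.63 ± 0.16 (limma adjusted p = 0.0106). Kdm5a, a histone demethylase, was at -0.43 ± 0.14 (limma adjusted p = 0.0356), a call that was lost without replicate 2 or 3 of either line, with limma adjusted p up to 0.139.

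Partners of MGA in the variant Polycomb complex had 11 of 14 genes tested, with 3 higher, 1 lower and a median of -0.01. The share that passed was 36.4%, against 43.7% of all tested genes. With E14TG2A replicate 1 left out, 4 were higher and 2 lower. Wdr5 belongs to this list too and was the largest rise. Ring1, a ubiquitin ligase of the complex, was higher by 0.41 ± 0.12 (log2, SE, n = 3 arrays each, limma adjusted p = 0.0231), and Tfdp2, a partner of E2F proteins, was lower at -0.45 ± 0.12 (limma adjusted p = 0.0171). Ring1 missed the threshold without replicate 2 or 3 of i2PS or replicate 2 of E14TG2A, and Tfdp2 without replicate 1 or 3 of i2PS. Pcgf6, L3mbtl2 and E2f6, the subunits that define the complex, were tested and did not pass. They fall outside the naming rule and were chosen after their values were seen.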

How the data were processed

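RNA of 3 i2PS and 3 E14TG2A cultures was measured on Illumina bead arrays. The authors deposited intensity values of 45281 probes per array, not normalized between arrays, made with GenomeStudio per the submitters' processing notes. They also deposited a detection p-value per probe, in steps of 1 in 936. Their quantile-normalized intensity table served as an alternative.

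Here limma 3.58.1 in R 4.3.3 corrected the background from the detection p-values (neqc, offset 16), applied quantile normalization and took log2. Kept were the 12841 probes with 1 symbol and a detection p under 0.01 on every array of either line. The annotation gave 1 symbol to 34885 probes, several to 18 and none to 10378. Symbols came from GEO's platform annotation, updated through a RefSeq table of GRCm38.p6 for 34818 probes. The brightest kept probe stood for a gene. Lines were compared with lmFit and eBayes over 8651 genes, and over the kept probes where single probes are given, with Benjamini-Hochberg adjustment. The labels call the cultures biological replicates, so the p-values reflect how far these cultures varied. For a probe detected on no array of 1 line, the fold is a bound on the means of the reported setting. Each dim array was set to its lowest detected signal, or to the probe's own signal where that was higher. The number of arrays limits precision.

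The members and lists were chosen with earlier results of these data known. Named were all members, the 2 largest rises and 2 largest falls past the threshold in each list around the network (cell type markers aside), every gene of lists of at most 5, and the 3 nearest profiles of each called member. Alternatives changed background correction, normalization, filter, probe choice, variance model, weights or pairing, or left out an array. The script was tested on simulated data.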

Additional observations from a re-analysis of the deposited data

How the results depend on the processing

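None of the 5 tested members changed sign under the alternatives in which it was tested, and the calls of Max and Mxd3 were the ones lost. Max was at -0.17 with normexp and an offset of 50, -0.12 with no background correction, -0.31 with equal medians and -0.13 in the authors' table. It was at -0.40, and no longer past the threshold, with a detection p under 0.05, with no filter and with a variance trend. It ranged from -0.49 to -0.26 with 1 array left out. Mxd3 missed the threshold at 0.18 with normexp, 0.13 with no correction, 0.43 with equal medians, 0.13 in the authors' table and 0.38 with the variance trend, and ranged from 0.34 to 0.42 with 1 array left out. Array weights made Mxd4 (-0.56) and Mycl (-0.30) pass. With 1 array left out, Mxd4 ranged from -0.59 to -0.20, Mycl from -0.35 to -0.17 and Mga from -0.73 to -0.34. The count of higher members was 0 with normexp, no correction, equal medians, the authors' table and the variance trend, and 0 to 1 with 1 array left out. The count of lower members was 0 in those settings and under each other filter, 3 with array weights and 0 to 2 with 1 array left out. Detection on all 6 arrays leaves Max untested. With equal medians 0 genes of ribosome synthesis were higher and 0 lower, and of the other MYC-activated genes 1 was higher and 0 lower. Equal medians and leaving out replicate 1 of E14TG2A, which gave 14 higher among the other MYC-activated genes, were added for the lists after the data had been seen. Among the smaller lists, lower SIN3 complex genes numbered 2 in the authors' table and 0 with no filter, against 1. Lower partners of MGA numbered 2 with cyclic loess, against 1, and lower MYC cofactors 2 in the authors' table, against 1. Lower germ-cell genes numbered 1 in the authors' table, with no filter and without replicate 1 of E14TG2A, against 2, and higher ones 2 in the last 2 of these settings, against 1. Lower enzymes of MYC stability numbered 2 with no filter, against 3, and higher pluripotency markers 1 with no filter, against 3. The cause of these changes was not tested. Depth of signal limits Myc, Mycn, Mxd1, Mlx and Max, whose probes lay at or near background.

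With the replicate number as a replicate block, 3613 genes passed against 3781, and Max (-0.40, limma adjusted p = 0.0460) and Mxd3 (0.38, limma adjusted p = 0.0317) kept their calls. No pairing by number showed in the values: deviations of same-numbered cultures correlated at 0.009, -0.047 and 0.068 across genes. Whether same-numbered cultures were handled together cannot be told from this. A slide block was not run, because no slide is given in the sources used here.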
